A study of Mus musculus with 48 samples.

Results

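The 10 genes described here belong to the inflammasome and to pyroptosis, and were followed in splenic monocytes, pre-RPMs, and red pulp macrophages (RPMs). They were chosen by name, and all 10 are among the 54735 genes listed in each of 24 RNA-seq libraries. Il1b and Il1rn encode secreted products, Nlrp3, Nlrc4, Aim2, and Mefv encode sensors, Pycard encodes the adaptor, Casp1 and Casp4 encode caspases, and Gsdmd encodes the pore-forming protein. Monocytes (Ly6Glo CD11bhi F4/80-), pre-RPMs (Ly6Glo CD11bhi F4/80lo), and RPMs (Ly6Glo CD11blo/- F4/80hi) were sorted from the spleens of male Balb/c mice 10 weeks old that were either WT or labelled Il1rl1-/-. Il1rl1 encodes ST2, the receptor for IL-33. There were 4 mice per genotype and 1 library for each cell type of each mouse, which gave 6 groups of 4 libraries. Mice are numbered 1 to 4 within each genotype, and the same number in the other genotype is a different animal.

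Inflammasomes are protein complexes that assemble in the cytosol when a sensor detects microbial products or damage. NLRP3 responds to many forms of membrane and ion stress, NLRC4 to bacterial flagellin and secretion systems passed on by NAIP proteins, and AIM2 to cytosolic DNA, and pyrin, the product of Mefv, is a further sensor. The sensor recruits ASC, the product of Pycard, which clusters caspase-1, and caspase-1 matures IL-1β and cleaves gasdermin D, whose fragments form pores that release the cytokine and kill the cell by pyroptosis. The mouse protein encoded by Casp4, also called caspase-11, binds intracellular lipopolysaccharide and cleaves gasdermin D without a canonical inflammasome. IL-1 receptor antagonist, the product of Il1rn, blocks the receptor of IL-1. RPMs are the resident macrophages that take up senescent red blood cells and recycle their iron. RNA was measured here, and neither assembly of the complex nor cleavage of its substrates was.

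Il1rn and Mefv lost nearly all of their counts in RPMs, and the 250 bases before their RefSeq transcription starts are shown for this reason (GRCm38.p6, written 5′ to 3′ on the strand of the gene). RefSeq gives 3 starts for Il1rn, of which the windows of the most upstream and of the next are printed. Capitals mark matches on either strand to letters associated with AP-1 (TGANTCA), PU.1 (GAGGAAGT), C/EBP (TTGCNNAA), or GATA factors (AGATAA), and no match overlapped another.
Il1rn, chr2:24336610-24336859, plus strand: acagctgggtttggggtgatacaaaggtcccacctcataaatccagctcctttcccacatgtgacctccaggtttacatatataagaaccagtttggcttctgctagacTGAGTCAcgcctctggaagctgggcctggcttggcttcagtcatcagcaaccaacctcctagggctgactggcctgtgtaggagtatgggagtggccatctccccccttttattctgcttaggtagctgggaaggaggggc
Il1rn, chr2:24345041-24345290, plus strand: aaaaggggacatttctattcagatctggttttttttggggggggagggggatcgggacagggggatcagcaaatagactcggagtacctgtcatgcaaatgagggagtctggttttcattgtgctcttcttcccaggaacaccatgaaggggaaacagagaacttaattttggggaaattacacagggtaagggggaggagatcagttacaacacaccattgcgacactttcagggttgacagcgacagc
Mefv, chr16:3718125-3718374, minus strand: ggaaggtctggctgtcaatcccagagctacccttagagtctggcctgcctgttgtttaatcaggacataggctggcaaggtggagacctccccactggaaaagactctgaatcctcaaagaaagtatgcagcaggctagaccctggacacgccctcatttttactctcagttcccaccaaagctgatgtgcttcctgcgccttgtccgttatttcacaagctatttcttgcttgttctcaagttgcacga
The single match in these windows was to the AP-1 letters, at -141 from the most upstream start of Il1rn. These letters were found in 6.75% of 32851 windows of the same length before annotated starts. Windows were matched for 9 of the 10 genes, 13 windows in all. The PU.1 letters were present before Pycard, at -44, and before Aim2, at -113, and in 2.44% of all windows. The C/EBP letters were present before Pycard and Nlrc4 and in 9.56% of all windows, and the GATA letters before 1 start of Nlrp3 and in 9.99%. A match of letters is not a bound site.

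Total counts per library ranged from 3562367 to 6559454, and 1 gene, Gm42418, took between 24.4% and 38.8% of them. Levels are normalised read counts scaled to library size (CPM), and 3 counts corresponded to between 0.457 and 0.842 CPM. The red pulp macrophage list summed to between 6334 and 8841 CPM in RPMs, 114.5 and 302 CPM in pre-RPMs, and to at most 83.1 CPM in monocytes. The monocyte list did not separate monocytes from pre-RPMs. It summed to between 1098 and 1614 CPM in monocytes, 1211 and 1604 CPM in pre-RPMs, and 278 and 341 CPM in RPMs. Of the markers that define monocytes, Ccr2 averaged 292 CPM in WT monocytes and 534 CPM in WT pre-RPMs, and F13a1 171 and 327 CPM. Markers of other cells were present as well. The 10 neutrophil markers summed to between 794 and 2606 CPM in monocytes, 185 and 438 CPM in pre-RPMs, and 1.97 and 20.3 CPM in RPMs, with none of them at 0 throughout monocytes or pre-RPMs. The 8 erythroid markers summed to between 896 and 24143 CPM in RPMs. The monocyte libraries of mice 1 and 2 in both genotypes carried more NK cell marker counts than those of mice 3 and 4. The same held for T cell, B cell, and basophil and mast cell markers. Results that change when these libraries are left out are also given without them. Il1rl1 had between 12.5 and 15.3 CPM in monocytes labelled Il1rl1-/- and between 1.95 and 4.28 CPM in WT monocytes, which goes against the label as far as counts per gene can show. In pre-RPMs it likewise had between 11.8 and 12.9 CPM in libraries labelled Il1rl1-/- and between 3.19 and 5.71 CPM in WT. In RPMs the direction was that of the label, with between 0.224 and 1.28 CPM in libraries labelled Il1rl1-/- and between 1.06 and 3.001 CPM in WT, and the groups overlapped. Counts are summed over the exons of the gene, so that transcripts of a targeted allele outside the deleted part cannot be told apart from the intact transcript. Directions between genotypes are therefore those of libraries labelled Il1rl1-/- relative to libraries labelled WT.

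Levels of different genes were set side by side per kilobase of exon, with all annotated exons of a gene counted in its length. A gene is placed too low where these exceed the transcripts present, as they may for Pycard, with 3800 bases. The order of the genes is therefore approximate. On this scale, Gsdmd was highest in WT pre-RPMs, at 23.2 ± 2.52 CPM per kb (SD, n = 4). Mefv followed at 17.8 ± 2.33, Casp1 at 14.3 ± 2.49, Il1b at 12.8 ± 1.79, and Nlrp3 at 11.1 ± 7.97 CPM per kb (SD, n = 4), and the last 3 lay within their spread of each other. Aim2 had 7.40 ± 1.55 CPM per kb, and Casp4, Pycard, Nlrc4, and Il1rn had less than 4 on average. In WT RPMs, Nlrp3 led at 31.8 ± 28.3 CPM per kb, with an SD larger than its distance to Casp1 (14.7 ± 3.92), Il1b (11.9 ± 4.25), and Gsdmd (10.7 ± 1.54). Mefv, at 0.687 ± 0.313 CPM per kb, was lower there than every other gene of the 10 but Il1rn. In WT monocytes, Nlrp3 (18.05 ± 17.3), Gsdmd (14.8 ± 5.397), Il1b (10.6 ± 3.81), and Casp1 (9.32 ± 2.90) led without separating beyond their spread, and Il1rn was lowest at 0.717 ± 0.365 CPM per kb. Il1rn was the one gene of the 10 with libraries at 0, all of them RPMs.

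**Figure D1:**
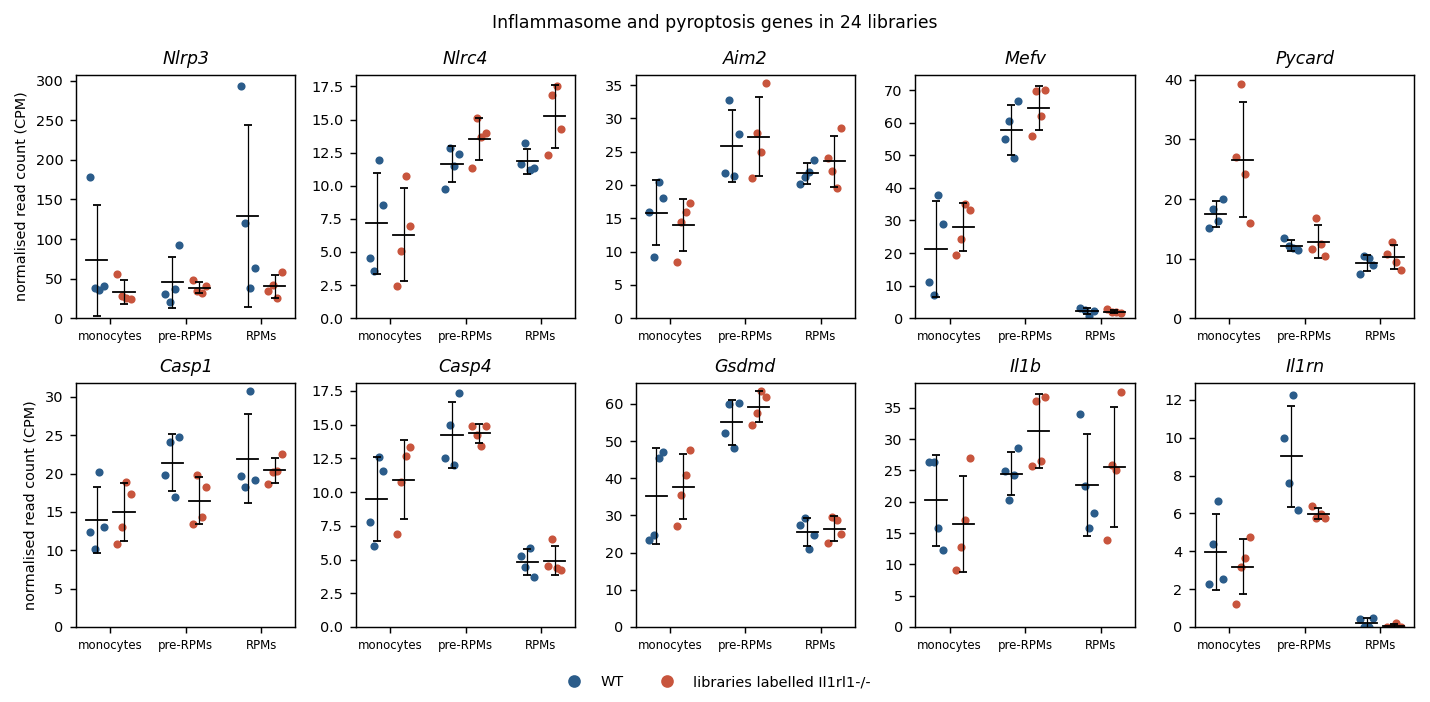
Normalised read count in CPM (vertical axes, each from 0) of the 10 genes in monocytes, pre-RPMs, and RPMs. Each point is 1 library, blue for WT and red for libraries labelled Il1rl1-/-, and black bars give the mean and SD of 4. Mefv and Il1rn drop to near 0 in RPMs of both genotypes, Casp4 and Gsdmd drop without overlap with pre-RPMs, and single WT libraries of Nlrp3 reach 179 CPM in monocytes and 293 CPM in RPMs.

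Cell types were compared within each genotype, and a call needed a log2 fold change above 1 in size together with p under 0.01 after adjustment. Between WT pre-RPMs and WT RPMs, 4 of the 10 genes fell and none rose. Over all 11239 genes tested, 10.7% fell and 14% rose. The libraries labelled Il1rl1-/- also gave 4 genes that fell and none that rose, beside 11.5% and 14.5% of 11437 genes. Il1rn, Mefv, Casp4, and Gsdmd fell in both genotypes, that is, the antagonist of IL-1, the pyrin sensor, the lipopolysaccharide-binding caspase, and the pore former. Il1rn had so few counts in RPMs that it entered the test through pre-RPMs, where it is high. Its direction was therefore set by the filter, and it adds nothing to the comparison with all genes. Mefv, with between 3 and 15 counts in the RPM libraries, is also lost when every library must have at least 10. The median log2 fold change of the 10 genes was -0.37 in WT and -0.37 in libraries labelled Il1rl1-/-, beside -0.0012 and -0.0018 for all genes tested.

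Mefv lies on chromosome 16 from 3707218 to 3718097 on the minus strand of GRCm38 (ENSMUSG00000022534). In mice 1 to 4, it had 54.9, 60.7, 49.03, and 66.7 CPM in WT pre-RPMs and 3.17, 2.65, 0.802, and 2.31 CPM in WT RPMs. The libraries labelled Il1rl1-/- had 56.05, 69.9, 61.9, and 70.1 CPM in pre-RPMs and 2.69, 1.96, 1.75, and 1.70 CPM in RPMs. Every RPM library was below every pre-RPM and every monocyte library. The log2 fold change from pre-RPMs to RPMs was -4.68 ± 0.22 (SE, with an adjusted p of 5.9e-10 by edgeR) in WT and -5.04 ± 0.15 (SE, with an adjusted p of 6.8e-13 by edgeR) in libraries labelled Il1rl1-/-.

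Il1rn lies on chromosome 2 from 24336853 to 24351494 on the plus strand (ENSMUSG00000026981). It had 10.002, 7.62, 12.3, and 6.19 CPM in WT pre-RPMs of mice 1 to 4, and its raw counts in WT RPMs were 2, 0, 0, and 2. Pre-RPMs labelled Il1rl1-/- had between 5.77 and 6.39 CPM, and RPMs labelled Il1rl1-/- had 1 count over 4 libraries. Summed over a group, WT had 148 counts in pre-RPMs and 4 in RPMs, a ratio of 39.997 (95% interval 15.3 to 149) after scaling, with an exact binomial interval. The same ratio in libraries labelled Il1rl1-/- was 118 (95% interval 20.7 to 4697), from 112 and 1 counts. These intervals cover counting error only. The fitted log2 fold changes were -5.19 ± 0.50 (SE, with an adjusted p of 8.7e-07 by edgeR) and -6.34 ± 0.52 (SE, with an adjusted p of 5.4e-08 by edgeR), and they rest on these few counts in RPMs.

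Casp4 lies on chromosome 9 from 5308828 to 5336783 on the plus strand (ENSMUSG00000033538), 1563 bases after the end of Casp1. It had 12.6, 14.97, 12.01, and 17.4 CPM in WT pre-RPMs and 5.29, 4.48, 5.88, and 3.69 CPM in WT RPMs. Its log2 fold change was -1.60 ± 0.21 (SE, with an adjusted p of 1.5e-05 by edgeR) in WT and -1.58 ± 0.18 (SE, with an adjusted p of 2.0e-06 by edgeR) in libraries labelled Il1rl1-/-. Gsdmd lies on chromosome 15 from 75862327 to 75867408 on the plus strand (ENSMUSG00000022575). It had 52.1, 59.9, 48.1, and 60.2 CPM in WT pre-RPMs and 27.3, 29.3, 20.8, and 24.7 CPM in WT RPMs, with log2 fold changes of -1.15 ± 0.13 (SE, with an adjusted p of 3.6e-06 by edgeR) and -1.21 ± 0.11 (SE, with an adjusted p of 1.2e-07 by edgeR). For Casp4 and Gsdmd, no RPM library overlapped with a pre-RPM library of its genotype. Markers of several other cells changed across the same step. The neutrophil markers fell. NK cell markers fell in WT from between 64.8 and 132 CPM to between 9.08 and 31.1 CPM. Erythroid markers rose from between 11.3 and 639 CPM in pre-RPMs to between 896 and 24143 CPM in RPMs. The part of these markers in the changes of Casp4 and Gsdmd was not tested. Of the markers that define neutrophils, Ngp had between 36 and 307 counts in the pre-RPM libraries and between 1 and 19 in the RPM libraries, Camp between 37 and 114 and between 1 and 9, and Ly6g at most 7 and at most 1. In bulk samples, fewer cells that express a gene and less RNA per cell cannot be told apart.

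Casp1, Aim2, Nlrc4, Il1b, and Pycard did not pass from pre-RPMs to RPMs in either genotype. Casp1 (chromosome 9 from 5298517 to 5307265, plus strand, ENSMUSG00000025888) had 21.4 ± 3.73 CPM in WT pre-RPMs and 21.97 ± 5.87 CPM in WT RPMs (SD, n = 4). Its log2 fold change was -0.018 (SE 0.19) in WT and 0.24 (SE 0.14) in libraries labelled Il1rl1-/-, and neither passed. The DNA sensor Aim2 (chromosome 1 from 173350879 to 173466040, plus strand, ENSMUSG00000037860) had between 21.3 and 32.8 CPM in WT pre-RPMs and between 20.1 and 23.8 CPM in WT RPMs, with log2 fold changes of -0.30 (SE 0.15) and -0.28 (SE 0.16). Nlrc4 (chromosome 17 from 74425438 to 74459142, minus strand, ENSMUSG00000039193) had 11.6 ± 1.36 and 11.8 ± 0.935 CPM (SD, n = 4), with log2 fold changes of -0.013 (SE 0.16) and 0.11 (SE 0.15). Il1b (chromosome 2 from 129364570 to 129371139, minus strand, ENSMUSG00000027398) had 24.9, 20.2, 24.3, and 28.6 CPM in WT pre-RPMs and 34.1, 22.6, 15.8, and 18.2 CPM in WT RPMs. These ranges of Il1b overlap, and its log2 fold changes were -0.15 (SE 0.20) and -0.36 (SE 0.22). Pycard (chromosome 7 from 127989708 to 127993867, minus strand, ENSMUSG00000030793) had 13.5, 12.1, 11.8, and 11.4 CPM in WT pre-RPMs and 7.41, 10.4, 10.2, and 9.003 CPM in WT RPMs. The WT groups of Pycard did not overlap, but the log2 fold change of -0.45 ± 0.17 (SE, with an adjusted p of 0.0392 by edgeR) did not pass.

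**Figure D2:**
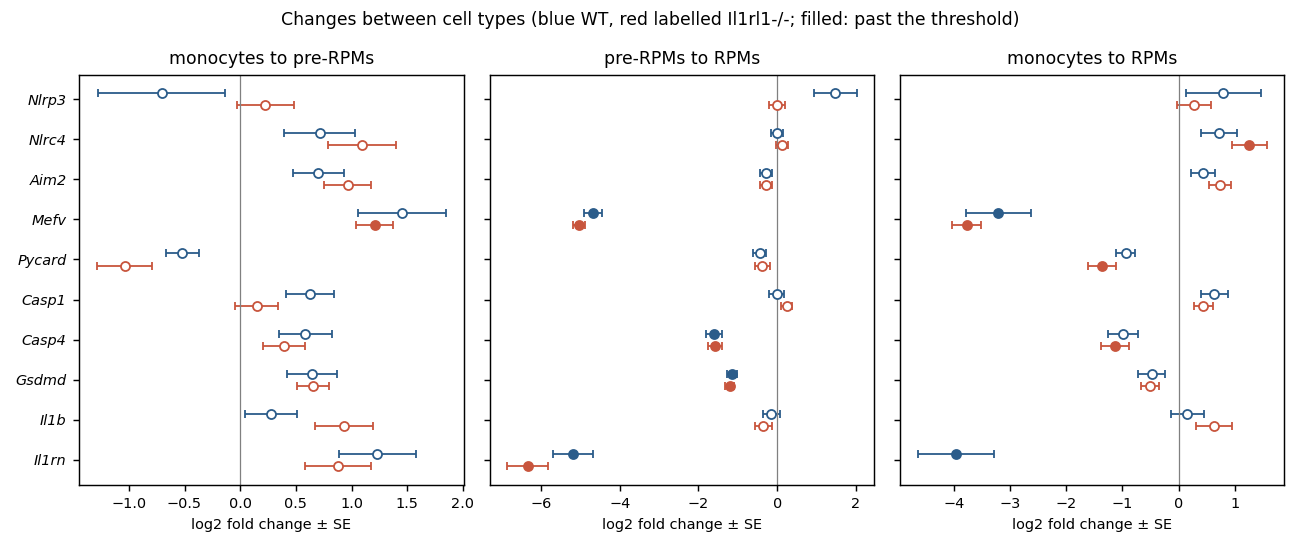
Log2 fold change ± SE (horizontal axes) of the 10 genes for each pair of cell types, in WT (blue) and in libraries labelled Il1rl1-/- (red). Filled points passed both thresholds, p under 0.01 after adjustment and a size above 1. Mefv, Casp4, Gsdmd, and Il1rn are filled in both genotypes from pre-RPMs to RPMs, and Il1rn has no point from monocytes to RPMs in libraries labelled Il1rl1-/-, where it was not tested.

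From monocytes to pre-RPMs, edgeR called none of the 10 genes in WT, where 0.316% of 11091 genes rose and 3.25% fell, while 8 of the 10 had an unadjusted p under 0.05 and DESeq2 called 1, Mefv. The libraries labelled Il1rl1-/- gave 1 gene that rose and none that fell, beside 0.974% and 3.88% of 11196 genes. That gene was Mefv, with a log2 fold change of 1.21 ± 0.17 (SE, with an adjusted p of 0.000592 by edgeR), and in WT Mefv had 1.45 ± 0.40 (SE, with an adjusted p of 0.0332 by edgeR). The median of the 10 genes was 0.63 in WT and 0.76 in libraries labelled Il1rl1-/-, and that of all genes tested was 0.0069 and -0.0018. Pycard was lower in pre-RPMs than in monocytes of the same animal in all 8 mice. Pycard had 15.1, 18.4, 16.3, and 20.1 CPM in WT monocytes and 27.1, 39.3, 24.1, and 16.1 CPM in monocytes labelled Il1rl1-/-, and its log2 fold changes to pre-RPMs were -0.52 ± 0.15 (SE, with an adjusted p of 0.0377 by edgeR) and -1.04 ± 0.25 (SE, with an adjusted p of 0.0151 by edgeR). With the mouse number as a block, which pairs the libraries of an animal, Pycard (-1.02, with an adjusted p of 0.000532 by edgeR) and Nlrc4 (1.16, with an adjusted p of 0.00693 by edgeR) also passed in libraries labelled Il1rl1-/-, 3 genes in place of 1.

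Single monocyte libraries changed these counts. Without the WT monocyte library of mouse 3, Il1rn (1.58, with an adjusted p of 0.00416 by edgeR) and Mefv (1.86, with an adjusted p of 0.00255 by edgeR) passed in WT. Without the monocyte library of mouse 4 labelled Il1rl1-/-, Il1b (1.27, with an adjusted p of 0.00244 by edgeR), Pycard (-1.22, with an adjusted p of 0.00269 by edgeR), and Aim2 (1.08, with an adjusted p of 0.00845 by edgeR) joined Mefv. Without that of mouse 3, Nlrc4 (1.47, with an adjusted p of 0.00274 by edgeR) and Aim2 (1.03, with an adjusted p of 0.00816 by edgeR) did.

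The monocyte libraries of mice 1 and 2 stood apart from those of mice 3 and 4 in both genotypes. Mefv had 11.1, 6.99, 37.9, and 28.9 CPM in WT monocytes of mice 1 to 4 and 19.4, 24.2, 35.1, and 33.3 CPM in monocytes labelled Il1rl1-/-. Nlrc4 had 4.58, 3.59, 11.9, and 8.54 and 2.46, 5.04, 10.8, and 6.997 CPM in the same order. Casp4, Gsdmd, and Aim2 were likewise lower in mice 1 and 2 than in mice 3 and 4 of each genotype. The 7 NK cell markers went the other way, with 1467, 1714, 515, and 956 CPM in WT and 1384, 1044, 448, and 708 CPM in libraries labelled Il1rl1-/-, against at most 132 CPM in pre-RPMs. T cell, B cell, and basophil and mast cell markers were likewise higher in mice 1 and 2 than in mice 3 and 4 of each genotype. Monocyte and red pulp macrophage markers were lower in mice 1 and 2. The part of these markers in the levels of the 10 genes was not tested. When the monocyte libraries of mice 1 and 2 were left out, a setting chosen after the data were seen, the log2 fold change of Mefv from monocytes to pre-RPMs was 0.80 in WT and 0.91 in libraries labelled Il1rl1-/-, and none of the 10 genes passed in either genotype. That of Nlrc4 was then 0.20 and 0.61, against 0.71 (SE 0.32) and 1.09 (SE 0.31) with all libraries.

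From monocytes to RPMs in WT, 2 of the 10 genes fell and none rose, beside 10.5% and 13.4% of 11607 genes. These were Mefv, at -3.21 ± 0.58 (SE, with an adjusted p of 0.000912 by edgeR), and Il1rn, at -3.96 ± 0.68 (SE, with an adjusted p of 0.000681 by edgeR). Il1rn had 83 counts over WT monocytes and 4 over WT RPMs, a ratio of 16.3 (95% interval 6.12 to 61.1) with an exact binomial interval. Il1rn entered this test through monocytes, where it is higher, so that its direction was set by the filter. Of 9 genes tested in libraries labelled Il1rl1-/-, 3 fell and 1 rose, beside 11.6% and 14.3% of 11633 genes. Mefv (-3.78, with an adjusted p of 1.3e-07 by edgeR), Pycard (-1.36, with an adjusted p of 0.000711 by edgeR), and Casp4 (-1.13, with an adjusted p of 0.00207 by edgeR) fell, and Nlrc4 (1.26, with an adjusted p of 0.00515 by edgeR) rose. Il1rn was not tested there for its few counts, 60 in monocytes and 1 in RPMs. The median was -0.16 over the 10 genes in WT and 0.28 over 9 genes, without Il1rn, in libraries labelled Il1rl1-/-. For all genes tested it was -0.0056 and 0.015. Because the sets of genes differ, the medians of the genotypes cannot be set against each other. In WT, Pycard had between 15.1 and 20.1 CPM in monocytes and between 7.41 and 10.4 CPM in RPMs without overlap, and its log2 fold change of -0.94 ± 0.16 (SE, with an adjusted p of 0.000705 by edgeR) missed the fold threshold.

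The call of Nlrc4 from monocytes to RPMs turned on single libraries. It was lost without any 1 of 5 libraries labelled Il1rl1-/-, namely the monocytes of mouse 2 (1.12, with an adjusted p of 0.0229 by edgeR) or 4 (1.30, with an adjusted p of 0.0109 by edgeR) and the RPMs of mouse 2 (1.19, with an adjusted p of 0.0185 by edgeR), 3 (1.20, with an adjusted p of 0.0175 by edgeR), or 4 (1.30, with an adjusted p of 0.0116 by edgeR). The calls of Mefv, Pycard, and Casp4 in libraries labelled Il1rl1-/- were kept without any single library. In WT, Casp4 (-1.15, with an adjusted p of 0.00341 by edgeR) passed without the monocytes of mouse 2, Pycard (-1.004, with an adjusted p of 0.000882 by edgeR) without those of mouse 1, and Nlrc4 (1.06, with an adjusted p of 0.00851 by edgeR) without those of mouse 3. Without the monocytes of mice 1 and 2, Casp4 (-1.34, with an adjusted p of 0.000888 by edgeR) and Pycard (-1.01, with an adjusted p of 0.00168 by edgeR) joined Mefv and Il1rn in WT, 4 genes in all, and Nlrc4 (0.75, with an adjusted p of 0.0226 by edgeR) and Pycard (-0.997, with an adjusted p of 0.00317 by edgeR) no longer passed in libraries labelled Il1rl1-/-.

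Nlrp3, on chromosome 11 from 59541568 to 59566956 on the plus strand (ENSMUSG00000032691), had single libraries far above the rest. In WT mice 1 to 4 it had 179, 37.5, 36.02, and 40.6 CPM in monocytes, 30.5, 20.5, 37.3, and 92.6 CPM in pre-RPMs, and 293, 121, 38.7, and 63.5 CPM in RPMs. The libraries labelled Il1rl1-/- had 56.3, 27.9, 25.6, and 23.7 CPM in monocytes, 48.5, 34.8, 31.6, and 40.1 CPM in pre-RPMs, and 34.97, 41.5, 25.2, and 58.99 CPM in RPMs. WT mouse 1 was highest in monocytes and in RPMs, and WT mouse 4 in pre-RPMs. The raw counts of mouse 1 were 1170 in monocytes and 1386 in RPMs. From pre-RPMs to RPMs, the log2 fold change of Nlrp3 in WT was 1.47 ± 0.54 (SE, with an adjusted p of 0.0360 by edgeR), which did not pass at 0.01. It was 0.69, with an adjusted p of 0.222 by edgeR, without the RPMs of mouse 1, and it passed without the pre-RPMs of mouse 4 (2.08, with an adjusted p of 0.00823 by edgeR) or the RPMs of mouse 3 (1.77, with an adjusted p of 0.00678 by edgeR). The same change was -0.0018 (SE 0.20) in libraries labelled Il1rl1-/-. From monocytes to pre-RPMs in WT it was -0.70 (SE 0.57) with all libraries and 0.25 without the monocytes of mouse 1.

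**Figure D3:**
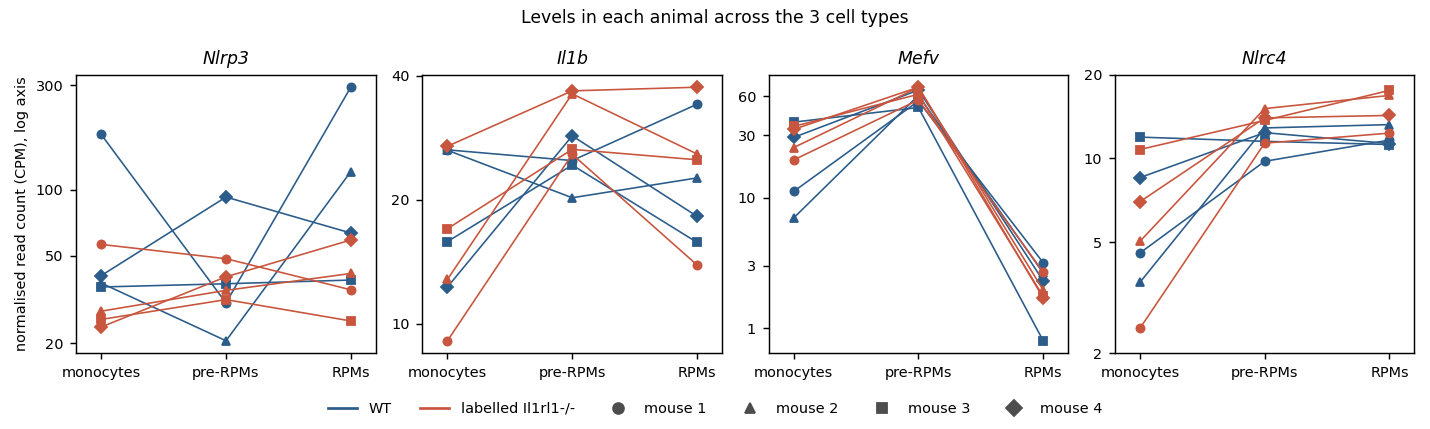
Normalised read count in CPM (vertical axes, log scale) of Nlrp3, Il1b, Mefv, and Nlrc4 in monocytes, pre-RPMs, and RPMs, with lines joining the 3 libraries of each animal. Blue lines are WT mice, red lines mice labelled Il1rl1-/-, and symbols give the mouse number. Mefv is higher in pre-RPMs than in monocytes and RPMs in all 8 animals, whereas the lines of Nlrp3 and Il1b cross.

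The genotypes were then compared within each cell type, at an adjusted p under 0.05, and edgeR called none of the 10 genes. In monocytes this was 0 of 10, beside 0.0614% of 11405 genes, and 1 gene, Pycard, had an unadjusted p under 0.05. In pre-RPMs it was 0 of 10, beside 0.552% of 10698 genes, and Il1b, Il1rn, and Casp1 had an unadjusted p under 0.05. In RPMs it was 0 of 9 tested, beside 0.233% of 11150 genes, and Nlrp3 and Nlrc4 had an unadjusted p under 0.05. DESeq2 called none of the 10 in any of the 3 cell types. With so few calls among all genes, a count of 0 among 10 is near the background.

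Nlrp3 in RPMs had a log2 fold change of -1.70 ± 0.49 (SE, with an adjusted p of 0.381 by edgeR) in libraries labelled Il1rl1-/- relative to WT, and the groups overlapped. It passed once the mouse number was a block (-1.39, with an adjusted p of 0.0458 by edgeR), the single call among the 10 genes in that fit. The labels do not pair a mouse number across genotypes, so that fit assumes a pairing. Over all genes, the block gave 81 calls in RPMs in place of 26. Without the WT RPMs of mouse 1, the log2 fold change of Nlrp3 was -0.90, with an adjusted p of 0.818 by edgeR. The exact 2-sided permutation test, without pairing, of mean log2 CPM gave p = 0.0857 for 4 libraries against 4, where the smallest p possible is 0.0286. The red pulp macrophage markers also differed between these groups without overlap, at 6334 to 8103 CPM in WT and 8522 to 8841 CPM in libraries labelled Il1rl1-/-. So did the neutrophil markers, at 11.3 to 20.3 CPM in WT and 1.97 to 6.73 CPM in libraries labelled Il1rl1-/-. The part of either list was not tested. In monocytes, the log2 fold change of Nlrp3 was -1.15 ± 0.55 (SE, with an adjusted p of 0.997 by edgeR), and -0.21 without the WT monocytes of mouse 1. In pre-RPMs it was -0.23 (SE 0.31), and 0.39 without the WT pre-RPMs of mouse 4.

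The other genes with an unadjusted p under 0.05 had smaller differences between genotypes. Il1rn had 9.02 ± 2.67 CPM in WT pre-RPMs and 5.97 ± 0.289 CPM in pre-RPMs labelled Il1rl1-/- (SD, n = 4), with a log2 fold change of -0.60 ± 0.23 (SE, with an adjusted p of 0.419 by edgeR). Il1b had 24.5 ± 3.42 and 31.3 ± 5.95 CPM in the same cells (SD, n = 4), with 0.36 ± 0.14 (SE, with an adjusted p of 0.462 by edgeR). Casp1 had 21.4 ± 3.73 and 16.5 ± 3.07 CPM (SD, n = 4), with -0.36 ± 0.16 (SE, with an adjusted p of 0.531 by edgeR). Pycard in monocytes had 17.5 ± 2.1996 and 26.6 ± 9.64 CPM (SD, n = 4), with 0.60 ± 0.24 (SE, with an adjusted p of 0.997 by edgeR). Without the monocytes of mice 1 and 2, the difference in Pycard was 0.13, and that in Il1b, -0.29 (SE 0.35) with all libraries, was 0.66, with none of the 10 genes called. Nlrc4 in RPMs had 11.8 ± 0.935 and 15.2 ± 2.40 CPM (SD, n = 4), with 0.36 ± 0.15 (SE, with an adjusted p of 0.659 by edgeR). Markers of other cells also differed between the pre-RPM groups, with no overlap for NK cells (64.8 to 132 CPM in WT and 11.6 to 42.2 CPM in libraries labelled Il1rl1-/-), basophils and mast cells (12.3 to 63.7 and 3.31 to 5.22 CPM), and B cells (53.6 to 78.5 and 26.2 to 53.4 CPM), and their part was not tested. The groups overlapped for each of the 10 genes in each cell type. The share of all genes whose groups overlapped was not determined, so this is not read as particular to the 10. Of 30 exact permutation tests, the lowest p, 0.0571, was that of Il1rn in pre-RPMs and of Nlrc4 in RPMs (0.714 after Benjamini-Hochberg adjustment over the 30 tests). Mefv, Casp4, and Gsdmd, which were low in RPMs, differed there between genotypes by -0.19 (SE 0.37), 0.038 (SE 0.24), and 0.041 (SE 0.13) on the log2 scale. The medians of the genes tested were -0.032, 0.085, and 0.041 in monocytes, pre-RPMs, and RPMs, beside -0.0050, -0.0025, and -0.0012 for all genes.

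**Figure D4:**
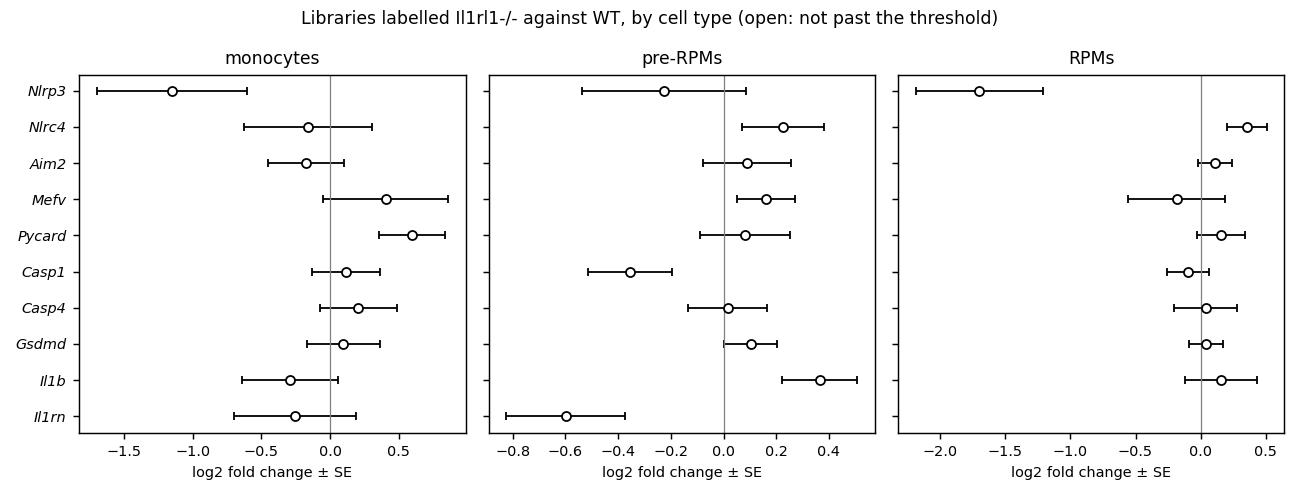
Log2 fold change ± SE (horizontal axes) of the 10 genes in libraries labelled Il1rl1-/- relative to WT, in monocytes, pre-RPMs, and RPMs. Open points did not pass an adjusted p under 0.05. All points are open, Nlrp3 in RPMs lies farthest from 0 at -1.70, and Il1rn has no point in RPMs, where it was not tested.

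Whether a change between cell types itself differed between genotypes was tested as an interaction over all 24 libraries and 12842 genes. None of the 10 genes passed, or had an unadjusted p under 0.05, for monocytes to pre-RPMs (0% of all genes), pre-RPMs to RPMs (0.0234%), or monocytes to RPMs (0.0311%), and DESeq2 called none of them. For the first of these, edgeR called 0 genes in all with 537 at an unadjusted p under 0.05, and DESeq2 called 0. From pre-RPMs to RPMs, the difference between genotypes was -0.35 (SE 0.67) for Mefv, 0.032 (SE 0.33) for Casp4, -0.058 (SE 0.27) for Gsdmd, and -1.46 ± 0.78 (SE, with an adjusted p of 0.874 by edgeR) for Nlrp3, on the log2 scale.

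Other genes of the pathway came from a list of 39 symbols, of which 37 are in the files. From pre-RPMs to RPMs, 5 of 29 tested rose and 5 fell in WT, beside 14% and 10.7% of all genes, and 5 of 31 rose and 7 fell in libraries labelled Il1rl1-/-, beside 14.5% and 11.5%. Of the 5 genes listed as cytokines, receptor, and decoys, Il1a, Il18, Il18bp, and Il1r1 rose in each genotype. Il1a and Il1r1 had so few counts in pre-RPMs that they entered the test through RPMs, where they are high. Their direction was therefore set by the filter, and both are among the 5 rises counted in each genotype. The fifth, Il1r2, a decoy receptor, was not tested for its few counts. In WT it had 1.31 ± 0.921 CPM in monocytes, 0.182 ± 0.234 CPM in pre-RPMs, and 0.0668 ± 0.134 CPM in RPMs (SD, n = 4). Il18bp, a decoy for IL-18, and Il1r2 are named here after their values were seen. Il1a, which encodes the other agonist of the IL-1 receptor, had no count in any of 8 monocyte libraries and 7.62, 12.4, 12.02, and 15.01 CPM in WT RPMs. Over WT libraries it had 2 counts in pre-RPMs and 207 in RPMs, a ratio of 95.7 (95% interval 26.2 to 796) with an exact binomial interval, and it was at least 21.4-fold higher in WT RPMs than in WT monocytes, taking 3 counts per library as the floor. Il18, which encodes a further substrate of caspase-1, had 4.86 ± 2.205 CPM in WT pre-RPMs and 54.03 ± 9.74 CPM in WT RPMs (SD, n = 4), with a log2 fold change of 3.40 ± 0.25 (SE, with an adjusted p of 4.9e-08 by edgeR). Il1r1, the signalling receptor of IL-1, had 8 counts over WT pre-RPMs and 251 over WT RPMs, a ratio of 29.02 (95% interval 14.5 to 67.97) with an exact binomial interval. Il18 rose across a step at which Il1b did not pass, whereas the rise of Il1a was set by the filter.

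Of the other sensors, 4 of 7 tested fell from pre-RPMs to RPMs in WT and none rose, and 5 of 8 fell in libraries labelled Il1rl1-/-, beside 10.7% and 11.5% of all genes. Zbp1, a sensor of nucleic acid in the Z form, had a log2 fold change of -3.19 ± 0.22 (SE, with an adjusted p of 3.1e-08 by edgeR) in WT, and Ifi204, a DNA sensor of the AIM2-like family, -1.93 ± 0.13 (SE, with an adjusted p of 2.6e-08 by edgeR). Ifi204 belongs to a family of similar genes between which reads may be split. Of 14 regulators tested, 1 fell and none rose in each genotype. Over all genes, 10.7% fell and 14% rose in WT, and 11.5% fell and 14.5% rose in libraries labelled Il1rl1-/-. The regulator that fell was Pstpip1, which encodes a protein that binds pyrin, with -3.83 ± 0.25 (SE, with an adjusted p of 1.5e-08 by edgeR) in WT and -4.72 ± 0.15 (SE, with an adjusted p of 7.1e-13 by edgeR) in libraries labelled Il1rl1-/-. Of the executioners, Ninj1, which encodes the protein that ruptures the membrane after gasdermin pores form, rose by 1.87 ± 0.12 (SE, with an adjusted p of 1.1e-08 by edgeR) in WT and by 2.53 ± 0.13 (SE, with an adjusted p of 2.0e-10 by edgeR) in libraries labelled Il1rl1-/-, the opposite direction to Gsdmd.

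From monocytes to pre-RPMs, Ninj1 was the single gene of 29 tested that passed in WT, at 1.24 ± 0.20 (SE, with an adjusted p of 0.00288 by edgeR), and none of 29 passed in libraries labelled Il1rl1-/-. Over all genes, 0.316% rose and 3.25% fell in WT, and 0.974% rose and 3.88% fell in libraries labelled Il1rl1-/-. The WT call was lost without the pre-RPMs of mouse 1 (1.22, with an adjusted p of 0.0133 by edgeR) or 3 (1.17, with an adjusted p of 0.0114 by edgeR), or without the monocytes of mice 1 and 2 (0.96, under the fold threshold). From monocytes to RPMs, 7 rose and 3 fell of 29 tested in each genotype, beside 13.4% and 10.5% of all genes in WT and 14.3% and 11.6% in libraries labelled Il1rl1-/-. Among the rises, Il1a and Il1r1 had so few counts in monocytes that they entered the test through RPMs, where they are high. Their direction was therefore set by the filter. In WT the calls included a rise of Il18 (5.12 ± 0.32, SE) and falls of Pstpip1 (-3.21 ± 0.32, SE), Zbp1 (-2.66 ± 0.35, SE), and Gsdme (-1.82 ± 0.31, SE), a gasdermin cleaved by caspase-3. Without the monocytes of mice 1 and 2, these were 4.49, -3.42, -3.07, and -1.36, and each still passed. Il1r1 rose as well, from 4 counts over WT monocytes to 251 over WT RPMs, a ratio of 80.02 (95% interval 30.9 to 296) with an exact binomial interval.

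**Figure D5:**
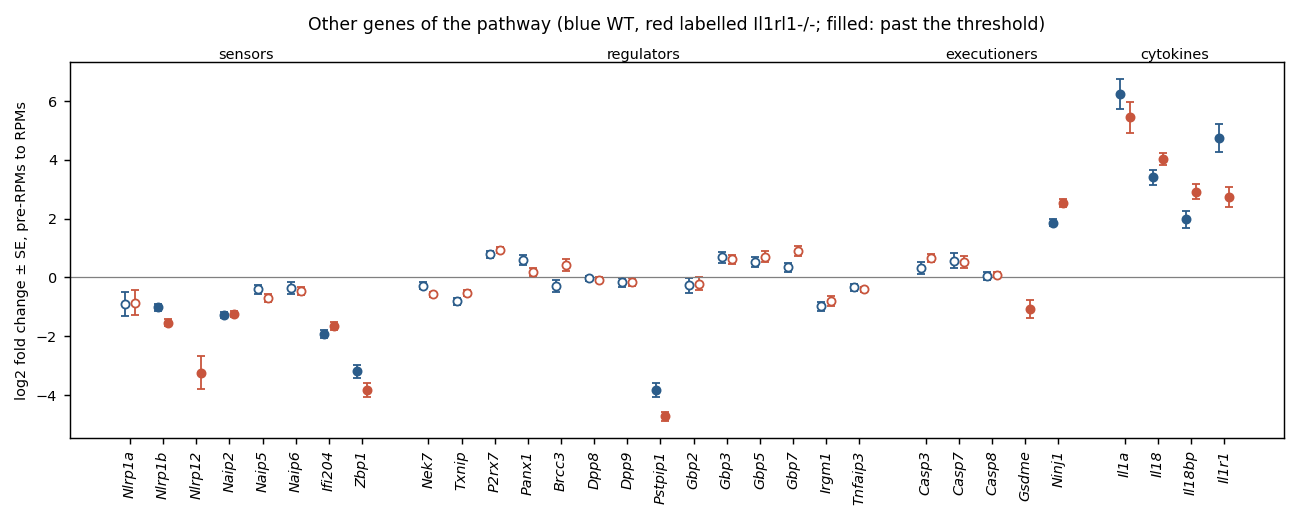
Log2 fold change ± SE from pre-RPMs to RPMs (vertical axis) of the other pathway genes that were tested, grouped as sensors, regulators, executioners, and cytokines. The last group also holds a receptor, Il1r1, and a decoy, Il18bp. Blue is WT, red libraries labelled Il1rl1-/-, and filled points passed the threshold. The 4 genes of that group lie above 0 in both genotypes, of which Il1a and Il1r1 entered the test through RPMs. Pstpip1 and Zbp1 are the lowest in WT.

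Between genotypes, 1 of the 28 of these genes tested passed in pre-RPMs, 1 of 28 in RPMs, and none of 28 in monocytes. Over all genes, 0.552%, 0.233%, and 0.0614% passed in the same order. Ninj1 had 24.2, 21.01, 26.2, and 20.2 CPM in WT pre-RPMs and 13.5, 15.1, 13.4, and 11.2 CPM in pre-RPMs labelled Il1rl1-/-. The groups did not overlap, and the log2 fold change was -0.79 ± 0.14 (SE, with an adjusted p of 0.0129 by edgeR). The call was lost with all 24 libraries in a single fit (-0.78, with an adjusted p of 0.112 by edgeR), without the WT pre-RPMs of mouse 1 (-0.76, with an adjusted p of 0.0526 by edgeR), and without the pre-RPMs of mouse 4 labelled Il1rl1-/- (-0.70, with an adjusted p of 0.0575 by edgeR). The part of the NK cell, basophil and mast cell, and B cell markers, which differed between these groups, was not tested here either. Il1r1 had 15.03, 11.4, 11.2, and 18.9 CPM in WT RPMs and 4.93, 4.25, 4.82, and 5.75 CPM in RPMs labelled Il1rl1-/-, with no overlap and a log2 fold change of -1.53 ± 0.21 (SE, with an adjusted p of 0.00501 by edgeR). In monocytes Il1r1 went the other way without overlap, with counts of 1, 0, 1, and 2 in WT and 4, 5, 3, and 3 in libraries labelled Il1rl1-/-, too few to be tested there. The difference between genotypes in its change from monocytes to RPMs was -3.58 ± 0.77 (SE, with an adjusted p of 0.149 by edgeR), and it passed when fitted by DESeq2 (-3.73, adjusted p = 0.0347), with every gene of at least 1 count (-3.54, with an adjusted p of 0.000897 by edgeR), or with only the 16 libraries of these cells (-3.57, with an adjusted p of 0.0382 by edgeR). Il1r1 lies on chromosome 1 from 40225080 to 40317257, and Il1rl1, the targeted gene, starts 112313 bases after its end on the same strand. Whether the targeted allele bears on the counts of Il1r1 was not tested. The part of the red pulp macrophage and neutrophil markers, which differed between the RPM groups, was not tested either.

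The genes most alike to each of the 10 were found by Pearson's r of log2 CPM over the 24 libraries, which come from 8 animals and 3 cell types and are not separate observations. Mefv was most like Pcnx (r = 0.991) and Plxnd1 (0.989), Il1rn like Nupr1 (0.969) and Mtpn (0.967), Casp4 like Gm13814 (0.971) and E230016K23Rik (0.967), and Gsdmd like Map3k5 (0.969) and Sirpb1a (0.966). Nlrc4 was most like Ampd3 (0.953) and Cd300a (0.931), Pycard like Trp53inp1 (0.920) and Txndc5 (0.912), Aim2 like Sat1 (0.910) and I830077J02Rik (0.906), and Casp1 like Hint1 (0.836) and Zscan12 (0.828). Nlrp3 was most like Plk1 (0.908) and Irx6 (0.893). Il1b had the lowest such values, 0.690 with Gm47664 and 0.688 with Vps35. Some of these genes had few counts or single high libraries. Group medians of Irx6 were 0.226 to 0.729 CPM except in WT RPMs, at 3.03 CPM. Plk1 reached 92.9 CPM in WT monocytes and 142 CPM in WT RPMs, against medians of 16.5 and 38.0 CPM. Gm13814 and E230016K23Rik had medians of 0 CPM in WT RPMs. How far r rests on such libraries was not tested. Among the 10 genes themselves, Mefv and Casp4 were most alike (0.943), followed by Mefv and Il1rn (0.937) and by Casp4 and Gsdmd (0.908), all of which fell from pre-RPMs to RPMs. The lowest r was that of Pycard with Nlrc4 (-0.661).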

How the data were processed

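RNA-seq was done on 24 libraries of sorted splenic cells (Takara SMARTer stranded total RNA kit, pico input). The authors deposited raw counts per gene, made with cutadapt, STAR 2.5.1, and featureCounts 1.6.2 (paired, reverse-stranded, exons summed by gene name, GRCm38 with Ensembl release 95, per the file headers). ATAC-seq samples of the series were not used here. The 10 genes, the pathway and marker lists, and the tests were chosen with earlier results of these data known. All 10 genes are named, and of the other pathway genes those called between genotypes and, in each WT comparison between cell types, the 3 largest rises and falls. For each of the 10, the 2 genes with the highest r are given.

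Counts were tested with edgeR 4.0.16 (R 4.3.3, TMM factors, filterByExpr, quasi-likelihood F test, Benjamini-Hochberg adjustment over all genes tested), with only the groups compared in each fit and all 24 libraries for interactions. SE is the absolute log2 fold change divided by the root of F. CPM used TMM factors over 24 libraries, and log2 CPM a prior count of 2. The steps were tested on simulated counts. Il1b and Pycard overlap antisense genes, which stranded counting keeps apart. Cell types of a mouse share the animal by the labels. Between genotypes, libraries with the same number deviated from their group means with r of 0.118 to 0.452 in monocytes, 0.149 to 0.182 in RPMs, and 0.0452 to 0.155 in pre-RPMs. Between cell types, libraries of the same animal gave r of -0.0394 to 0.306. The labels give no pairing across genotypes, and these r do not establish one. A block for the mouse number between genotypes therefore rests on an assumed pairing. The main fits and the permutation tests were unpaired, as in the design, and blocked values are given where they change a call. Alternatives were DESeq2 1.42.0, RLE factors, Gm42418 left out, other count filters, 1 fit over all libraries, a block for the mouse number, other thresholds, and each library left out. Leaving out the monocyte libraries of mice 1 and 2 was added after the data were seen.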

Additional observations from a re-analysis of the deposited data

Results flagged for a closer look

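Among groups of 4 libraries, 5 of 101 had a highest or lowest library whose gap to the nearest of the others, divided by the range, was above the 95% critical value of Dixon's test, where chance alone gives about 5% of groups. Nlrp3 was 179 CPM in WT monocytes of mouse 1 and 56.3 CPM in monocytes of mouse 1 labelled Il1rl1-/-, both the highest of their 4. Casp1 was 30.7 CPM in WT RPMs of mouse 3, the highest of 4, and Casp4 was 6.54 CPM in RPMs of mouse 2 labelled Il1rl1-/-, also the highest. Il18 was 1.58 CPM in WT pre-RPMs of mouse 2, the lowest of 4.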

How the results depend on the processing

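The counts of called genes among the 10 moved as follows. From monocytes to pre-RPMs in WT, 0 became 1 with DESeq2, 2 with every gene of at least 1 count, 1 in a single fit, 3 at an adjusted p under 0.05 with no fold threshold, and 0 to 2 when 1 library was left out. In libraries labelled Il1rl1-/-, the count of 1 became 2 with DESeq2, 3 with every gene of at least 1 count, 2 in a single fit, 3 with the replicate block, 6 at an adjusted p under 0.05 with no fold threshold, 0 without the monocytes of mice 1 and 2, and 1 to 4 when 1 library was left out. From pre-RPMs to RPMs, 4 became 2 in each genotype with at least 10 counts in every library, a filter that removes Mefv and Il1rn, which are low in RPMs. From monocytes to RPMs in WT, 2 became 0 with that filter, 5 at an adjusted p under 0.05, and 4 without the monocytes of mice 1 and 2. Between genotypes, 0 became 1 in monocytes and in RPMs with every gene of at least 1 count, and 1 in RPMs with the block. In the interactions for monocytes to pre-RPMs and pre-RPMs to RPMs, 0 became 1 with every gene of at least 1 count. The block changed no other call of the 10 genes, and no called value reversed. Over all genes, the block gave 27, 145, and 81 calls between genotypes in monocytes, pre-RPMs, and RPMs in place of 7, 59, and 26, and the filter of at least 1 count gave 139, 265, and 272. The cause of these shifts was not tested. Genes near the limit of counting, Il1rn in RPMs above all, carry no more precision than their few counts allow.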
